A study of Mus musculus with 6 samples.

Results

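The biliary progenitor markers followed here are surface and secreted proteins of bile duct and liver progenitor cells, found in the table by gene name: Spp1, Epcam, Prom1, Cd24a, Tm4sf4, Muc1, Cd44, Ncam1 and Ddr1, that is 9 of the 21700 genes in the deposited table. Of these 9 genes, 8 had a mean of at least 1 FPKM (fragments for each kilobase of exon, with library size scaled out) over all libraries and entered the test, and Ncam1 did not. The samples were biliary epithelial cells, the lining cells of the bile ducts, sorted by flow cytometry from the livers of wild-type (WT) female C57BL/6 mice. A group of 3 libraries was labelled non-pregnant and a group of 3 pregnant, the latter taken at dpc8, 8 days post coitum. The sources used here give neither the age of the mice nor the antibodies of the sort, so it is not known whether a product of these genes was itself used to select the cells. Nothing in the labels says that each library is a different mouse, so the p-values rest on the spread among libraries, which may be technical. For each gene the test also draws this spread toward that of genes of similar level.

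Most of these markers are proteins of the cell surface, which is why they serve in sorting and staining. In the adult liver most of them mark the duct epithelium, and several mark the small cells of the ductular reaction, in which duct-like cells multiply after injury. They do different jobs: osteopontin (Spp1) is secreted and binds integrins and CD44, EpCAM and NCAM mediate contacts between cells, MUC1 is a glycoprotein of the apical surface, and DDR1 is a collagen receptor with kinase activity. None of them marks a progenitor on its own, because mature duct cells carry most of them.

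The libraries held between 25047887 and 35083751 fragments recovered from the FPKM values, and the 9 genes together took between 0.878% and 1.31% of the fragments of a library. All 14 of the duct markers used to check the label, among them keratins and Sox9, were above the filter, with summed levels of 2249 to 2710 FPKM in the non-pregnant group and 2765 to 3047 FPKM in the pregnant one. Some libraries stood apart. The summed level of 10 endothelial markers was 318 FPKM in non-pregnant library 2 and between 23.0 and 45.1 FPKM in the other libraries. Non-pregnant library 3 was the lowest of the 6 libraries for 28.5% of all tested genes and the highest for 35.8%. Sums over 12 macrophage markers were 57.3 to 90.8 FPKM in the non-pregnant group and 110 to 183 FPKM in the pregnant one. Of these markers Csf1r and Cd68, which hold most of the non-pregnant sums, overlapped between the groups (limma adjusted p = 0.783 and 0.858). The other 10 were higher without overlap, with group means that differed by 8.76 times or more. Timd4 and Marco among them were below the filter. Of the 10 macrophage markers tested, Csf1r and Cd68 included, 3 passed the test, Cd5l, C1qa and C1qc. No gene at all passed in 6 of the other fits: with a pseudocount of 5 FPKM, with no filter on low values, and when any of non-pregnant 1, non-pregnant 3, pregnant 1 and pregnant 2 was left out. Hepatocyte markers summed to 2440 to 3072 FPKM in the non-pregnant group and 2385 to 2709 FPKM in the pregnant one. Alb, at 1973 to 2550 FPKM over the libraries, and Ttr, at 264 to 387 FPKM, held most of these sums. Fga lay between 24.8 and 100 FPKM, and others such as Apoa1, at 3.59 to 8.03 FPKM, and Cyp2e1, at 0.751 to 3.20 FPKM, were lower. Whether fewer cells of a type or less RNA per cell lowers a value cannot be told apart in such bulk samples.

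Among all genes of a library the 9 genes lay between rank 1, for Spp1, and rank 12626, for Ncam1 in its lowest library, and their order was stable with 1 exception. Spp1 was the highest of all genes in each of the 6 libraries. Then came Tm4sf4, Epcam and Cd24a, Muc1, Ddr1 and Prom1, all at 47.1 FPKM or more in every library, and far below them Cd44 and Ncam1. Each gene was above the next in this order in 6 of 6 libraries, except Epcam and Cd24a. Epcam was above Cd24a in all 3 non-pregnant libraries, and Cd24a was above Epcam in all 3 pregnant ones. The closest of the other neighbours were Muc1 and Ddr1, with Muc1 at 1.03 to 1.45 times the level of Ddr1. Spp1 stood at 8.35 to 10.6 times Tm4sf4, and Prom1 at 13.7 to 26.3 times Cd44.

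Between the groups, all 9 genes had a higher mean in the pregnant libraries, and none of the 8 tested genes passed the test. The test was limma on log2(FPKM + 1), with p-values adjusted over all 11412 tested genes and a threshold of 0.05. It called 0.0876% of the tested genes, 0.0613% as higher and 0.0263% as lower in the pregnant group. The adjusted p of the 8 genes lay between 0.301 and 0.880, and 2 of them, Cd24a and Muc1, were higher at an unadjusted p under 0.05, against 7.09% of all tested genes; none was lower, against 6.30%. For 8 of 8 genes the log2 change was above 0, against 44.8% of all tested genes. For 6 of the 9 genes every pregnant library was above every non-pregnant one. Of the 8 tested genes these were 5, and 9.90% of all tested genes were higher in this way. The median log2 change (pregnant minus non-pregnant) of the 8 genes was 0.29, with a range from 0.06 to 0.55, and the median over all tested genes was -0.02. Without non-pregnant library 3 the median of the 8 genes was 0.13.

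**Figure D1:**
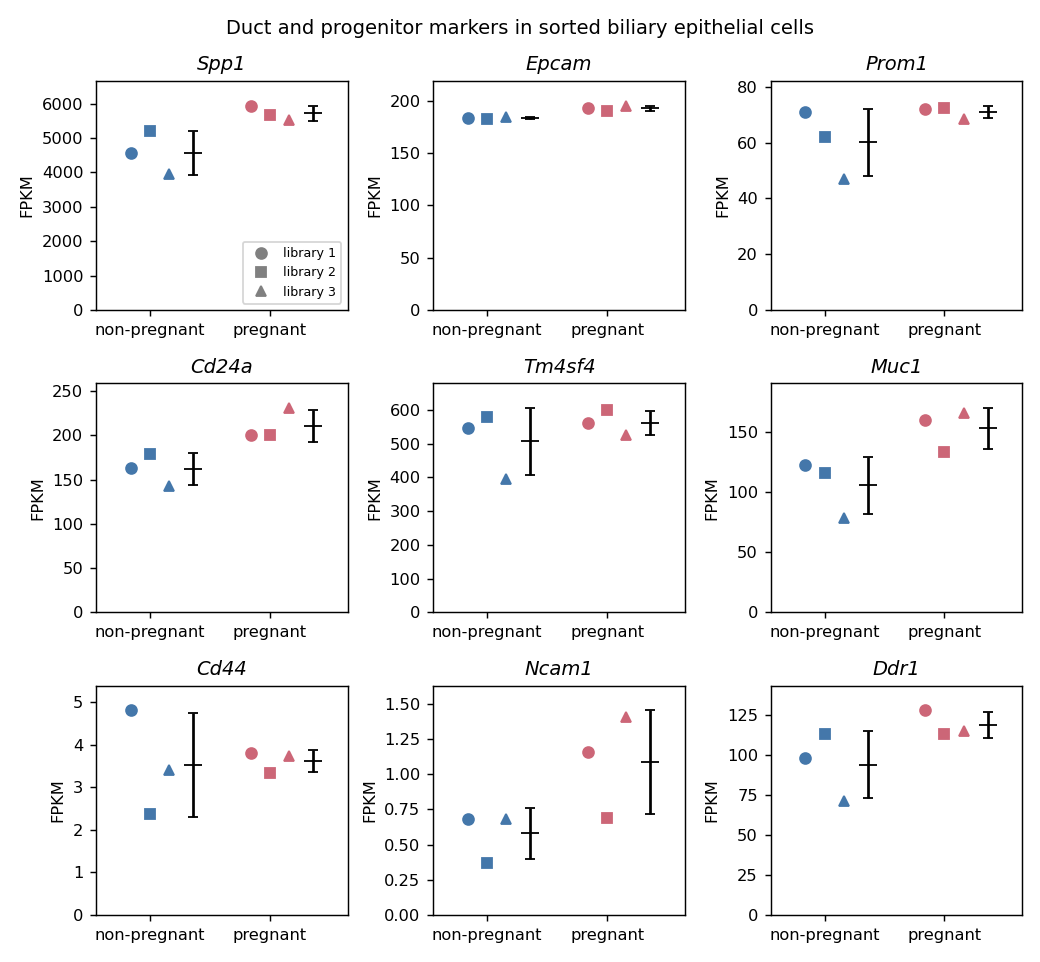
Level of each of the 9 markers (FPKM, vertical axes from 0) in the 3 non-pregnant and 3 pregnant libraries, with 1 point per library and the mean ± SD (n = 3) beside them. Non-pregnant library 3 is the lowest point for 6 genes and non-pregnant library 2 for the other 3.

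**Figure D2:**
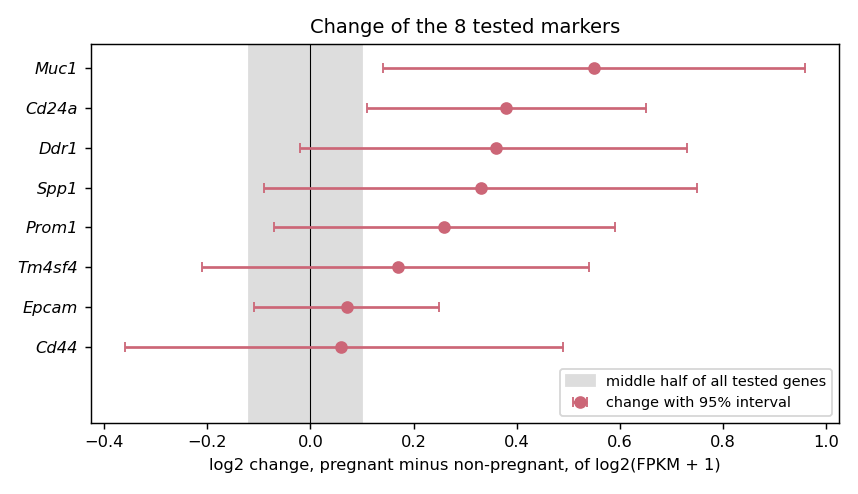
Log2 change of the 8 tested markers (horizontal axis, pregnant minus non-pregnant, on the log2(FPKM + 1) scale) with 95% intervals from limma that are not adjusted for multiple tests; the grey band runs from -0.12 to 0.10, the quartiles of all tested genes. The unadjusted intervals of Muc1 and Cd24a lie above 0, the others include it, and no gene passed after adjustment.

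The promoter sequences of Spp1, Muc1 and Epcam are shown because these genes, all without overlap between the groups, are the most abundant, the one with the largest log2 change and the steadiest of the set. They come from RefSeq on GRCm38.p6, run 5′ to 3′ on the strand of the gene from 250 bases before to 50 bases after the start site, and carry in capitals each match, on either strand, of 8 short motifs. The motifs were the TATA box TATAAA, the GC box GGGCGG, the CCAAT box CCAAT, the AP-1 site TGANTCA, the HNF1 half-site GTTAAT, the TEAD site GGAATG, the E-box CACGTG and the RBPJ site GTGGGAA, and no matches overlapped. The windows are chr5:104434861-104435160 for Spp1, chr3:89228806-89229105 for Muc1 and chr17:87635729-87636028 for Epcam, all on the plus strand.
Spp1: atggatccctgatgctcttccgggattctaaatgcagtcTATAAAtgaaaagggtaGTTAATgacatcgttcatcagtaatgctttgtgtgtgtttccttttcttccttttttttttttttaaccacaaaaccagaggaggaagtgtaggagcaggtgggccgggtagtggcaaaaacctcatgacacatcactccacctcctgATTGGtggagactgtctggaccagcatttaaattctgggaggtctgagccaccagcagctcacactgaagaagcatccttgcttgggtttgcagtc
Muc1: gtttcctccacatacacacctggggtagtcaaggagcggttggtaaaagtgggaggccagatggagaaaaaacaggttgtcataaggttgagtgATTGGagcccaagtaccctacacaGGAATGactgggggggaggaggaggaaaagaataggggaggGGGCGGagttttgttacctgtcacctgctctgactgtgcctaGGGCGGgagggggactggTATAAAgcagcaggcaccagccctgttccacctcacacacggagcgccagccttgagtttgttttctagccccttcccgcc
Epcam: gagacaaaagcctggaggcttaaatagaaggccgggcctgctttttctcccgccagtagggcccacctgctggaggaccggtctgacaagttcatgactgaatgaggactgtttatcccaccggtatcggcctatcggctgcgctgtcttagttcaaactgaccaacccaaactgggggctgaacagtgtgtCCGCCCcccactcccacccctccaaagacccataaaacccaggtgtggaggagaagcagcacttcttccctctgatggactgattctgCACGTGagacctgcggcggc

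The Muc1 window holds TATAAA with its first base 31 bases before the start site and GGGCGG at 91 and 49 bases before it. In the Spp1 window TATAAA begins 211 bases before the start and GTTAAT 194 bases before it. Epcam has no TATAAA in its window, a GC box on the minus strand at 58 bases before the start and CACGTG within the first 50 transcribed bases. Windows were matched for 7 of the 9 genes, all but Cd24a and Ncam1. TATAAA was present in 3 of these 7 (Spp1, Tm4sf4 and Muc1) and in 13.6% of the 32534 distinct windows of the table. The GC box was present in 5 of 7 (Epcam, Prom1, Muc1, Cd44 and Ddr1) against 35.9%, the CCAAT box in 4 of 7 against 37.4% and the HNF1 half-site in 2 of 7, Spp1 and Tm4sf4, against 7.14%. The AP-1 site was present in Prom1 alone against 7.79%, the TEAD site in Muc1 alone against 14.6%, the E-box in Epcam alone against 7.17%, and the RBPJ site in none of the 7 against 6.38%. These are matches of letters and do not show that a factor binds.

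The only secreted protein of the set, osteopontin, is known in ducts as a cytokine-like matrix protein. Its gene Spp1 (ENSMUSG00000029304; mm10 chromosome 5, 104435118 to 104441050, plus strand) stood at 4553, 5206 and 3941 FPKM in non-pregnant libraries 1 to 3 and at 5941, 5660 and 5532 FPKM in pregnant libraries 1 to 3. The groups did not overlap, but the lowest pregnant library was only 1.06 times the highest non-pregnant one. The spread was 632 FPKM (SD, n = 3) around 4567 in the non-pregnant group and 209 FPKM (SD, n = 3) around 5711 in the pregnant group. Its log2 change was 0.33 (95% interval -0.09 to 0.75; limma adjusted p = 0.431). The width of this interval depends on how limma sets the variance of so high a gene. At the same log2 change the unadjusted limma p was 0.0181 with no trend in the prior (adjusted p = 0.316). It was 0.778 with no filter on low values (adjusted p = 0.912). Spp1 passed in 0 of the other fits. Macrophages are also known to make osteopontin. As given above, 10 of 12 macrophage markers were likewise higher without overlap, and their part in the Spp1 values was not tested. The gene took between 0.652% and 0.976% of the fragments of a library, so counting error was small, with an expected coefficient of variation of 0.201%.

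Integrins that bind osteopontin showed no call in either direction (0 of 6 tested genes of 9). Itgb1, the common beta chain, was level at 104, 110 and 101 FPKM in the non-pregnant group and at 102, 106 and 106 FPKM in the pregnant one. Itga9, the alpha chain of another osteopontin receptor, stood at 21.2, 29.7 and 11.8 FPKM against 28.8, 32.2 and 27.3 FPKM (limma adjusted p = 0.408). Itgb3, a partner of the alpha v chain, was below the filter. Among the 7 proteases that can cut osteopontin none of the 3 tested passed. Mmp7, matrilysin, stood at 41.2, 19.5 and 45.6 FPKM in the non-pregnant group and at 15.7, 21.0 and 10.8 FPKM in the pregnant one, so that the groups overlapped at non-pregnant library 2 (a log2 change of -1.07 with an SE of 0.334; limma adjusted p = 0.301). Plg, plasminogen, lay between 11.4 and 32.7 FPKM and overlapped between the groups (limma adjusted p = 0.304). The other members of the gene family of osteopontin, Ibsp, Dmp1, Dspp and Mepe, were listed at 0 in all 6 libraries.

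Epcam, the epithelial adhesion molecule, was the steadiest of the 9 genes. Epcam (ENSMUSG00000045394; chromosome 17, 87635979 to 87651129, plus strand) stood at 183, 182 and 184 FPKM in the non-pregnant group and at 193, 190 and 195 FPKM in the pregnant one. The groups did not overlap, and the ratio of their means was 1.05 (log2 change 0.07, 95% interval -0.11 to 0.25; limma adjusted p = 0.670). The interval uses an SE of 0.0781, which limma draws toward the spread of genes of similar level. It is therefore wider than the spread of Epcam alone would give. Its coefficient of variation was 0.632% among non-pregnant and 1.32% among pregnant libraries, while counting error alone gives 0.908% at its fragment numbers of 10829 to 14235. Only 0.0701% of the tested genes had a smaller pooled SD within the groups.

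Of 13 partners and proteases of EpCAM, 11 were tested and 0 passed in either direction. Cldn7, a claudin that binds EpCAM, stood at 72.5, 84.9 and 63.3 FPKM in the non-pregnant group and at 92.9, 90.4 and 96.0 FPKM in the pregnant one, without overlap (a log2 change of 0.35 with an SE of 0.112; limma adjusted p = 0.304). Psen2, a catalytic subunit of the gamma-secretase that cuts the membrane stub of EpCAM, stood at 13.3, 12.6 and 14.9 FPKM against 11.6, 11.1 and 10.4 FPKM (limma adjusted p = 0.301). Bace1, a protease of the same pathway, stood at 27.3, 21.7 and 27.9 FPKM against 23.7, 21.3 and 20.1 FPKM (limma adjusted p = 0.414).

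Cd24a encodes a small, heavily glycosylated protein held in the membrane by a lipid anchor. The gene (ENSMUSG00000047139; chromosome 10, 43578284 to 43584265, plus strand) stood at 163, 179 and 143 FPKM in the non-pregnant group and at 200, 200 and 231 FPKM in the pregnant one. All pregnant libraries lay above all non-pregnant ones, and the lowest of the former was 1.11 times the highest of the latter, the widest such gap of the 9 genes. The log2 change was 0.38 (95% interval 0.11 to 0.65, unadjusted p = 0.0111; limma adjusted p = 0.301), 0.29 without non-pregnant library 3, and between 0.29 and 0.46 in all other fits. With limma array weights, which give less weight to libraries that vary more, Cd24a passed (limma adjusted p = 0.0294), but that fit called 1301 of all tested genes. In the other fits the adjusted p of Cd24a was between 0.0876 without non-pregnant library 2 and 0.738 without pregnant library 3.

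The difference in order with Epcam can be read within each library, where no scaling between libraries enters. The level of Cd24a was 0.893, 0.987 and 0.775 times that of Epcam in non-pregnant libraries 1 to 3 and 1.04, 1.05 and 1.19 times in pregnant libraries 1 to 3. Muc1 was the other gene whose ratio to Epcam did not overlap, with 0.672, 0.640 and 0.426 against 0.830, 0.706 and 0.853. The ratios of the remaining genes overlapped between the groups. The ratios to Epcam were chosen for comparison after the values were seen and are given as a description: 3 against 3 libraries cannot give an exact permutation p below 0.10. The CD24 receptor genes, Selp and Siglecg, were under 1 FPKM in every library. Cd24a is also known from B cells, neutrophils and red cell precursors, and markers of these cells were low. The sum over 7 neutrophil markers was 0.695 to 1.09 FPKM in the non-pregnant group and 1.64 to 2.24 FPKM in the pregnant one, and over 5 B cell markers it was at most 2.14 FPKM in the non-pregnant group and at most 3.06 FPKM in the pregnant one, without overlap. The sum over 6 erythroid markers was at most 0.835 FPKM. Among the neutrophil markers Elane had group means of 0.685 and 1.42 FPKM, without overlap, and Ly6g was listed at 0 in all libraries. The part of the neutrophil and B cell markers, whose sums were higher in the pregnant group as Cd24a was, was not tested.

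Muc1, the membrane mucin, had the largest log2 change of the 8 tested genes. It (ENSMUSG00000042784; chromosome 3, 89229057 to 89233381, plus strand) stood at 123, 116 and 78.4 FPKM in the non-pregnant group and at 160, 134 and 166 FPKM in the pregnant one. The groups did not overlap, and non-pregnant library 3 was at 0.560 of the mean of the other 5 libraries. The log2 change was 0.55 (95% interval 0.14 to 0.96, unadjusted p = 0.0146; limma adjusted p = 0.301) and 0.35 without non-pregnant library 3. Mesothelial cells also carry MUC1, and the sum over 5 markers of these cells overlapped, with 7.76 to 14.0 FPKM in the non-pregnant group and 6.25 to 12.5 FPKM in the pregnant one. Msln, the most abundant of them, had group means of 7.84 and 6.11 FPKM. Upk3b had group means of 1.05 and 1.80 FPKM, and those of Upk1b and Lrrn4 were also higher in the pregnant group, all with overlap. Wt1 was level at 0.142 and 0.141 FPKM. The part of these cells in the Muc1 values was not tested.

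Of the membrane mucins listed only Muc1 was above the filter. Muc4, Muc13 and Muc16 were under 1 FPKM in all libraries, Muc15 was listed at 0, and Muc20 lay between 0.328 and 1.52 FPKM. Of the galectin that binds mucins and the enzymes that build their sugar chains 3 were tested and 0 passed. Lgals3, galectin-3, lay between 4.06 and 8.42 FPKM (limma adjusted p = 0.783). C1galt1, which makes the core of mucin sugar chains, lay between 14.4 and 17.2 FPKM (limma adjusted p = 0.719), and St3gal1, which caps them with sialic acid, stood at 8.63, 7.45 and 11.8 against 7.62, 6.17 and 6.52 FPKM (limma adjusted p = 0.355). Of the gel-forming mucins and trefoil peptides only Tff2 was tested. It encodes a small peptide secreted with mucus and stood at 24.0, 19.9 and 9.77 FPKM in the non-pregnant group and at 30.3, 25.3 and 46.2 FPKM in the pregnant one, without overlap (a log2 change of 0.93 with an SE of 0.327; limma adjusted p = 0.322).

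Tm4sf4, a small protein with 4 membrane spans, was the second most abundant of the 9 genes. It (ENSMUSG00000027801; chromosome 3, 57425314 to 57441677, plus strand) stood at 545, 580 and 394 FPKM in the non-pregnant group and at 561, 598 and 525 FPKM in the pregnant one. Only non-pregnant library 3 lay apart, and the groups overlapped (log2 change 0.17, 95% interval -0.21 to 0.54; limma adjusted p = 0.635). Without that library the log2 change was -0.00 (limma adjusted p = 0.990). Its relative Tm4sf1 stood at 26.2, 25.3 and 20.4 FPKM in the non-pregnant group and at 27.4, 28.3 and 24.6 FPKM in the pregnant one (limma adjusted p = 0.514), and Tm4sf5, Tm4sf19 and Tm4sf20 were under 1 FPKM in all of them.

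Prom1 encodes prominin-1 (CD133), which sits on membrane protrusions such as microvilli. It (ENSMUSG00000029086; chromosome 5, 43993620 to 44102032, minus strand) stood at 70.9, 62.2 and 47.1 FPKM in the non-pregnant group and at 72.2, 72.5 and 68.5 FPKM in the pregnant one. Non-pregnant library 1 lay within the pregnant range, and library 3 was at 0.680 of the mean of the other 5 libraries. Prom1 had a log2 change of 0.26 (95% interval -0.07 to 0.59; limma adjusted p = 0.433), and 0.10 without non-pregnant library 3. An antisense gene, Gm16401, overlaps Prom1, and whether the authors counted by strand is not given in the sources used here. The only other prominin, Prom2, lay between 0.969 and 1.39 FPKM (limma adjusted p = 0.638).

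Ddr1, the collagen receptor of epithelia, had groups that touched. Ddr1 (ENSMUSG00000003534; chromosome 17, 35681567 to 35704621, minus strand; overlapped by the antisense gene Gm4577) stood at 98.1, 113 and 71.2 FPKM in the non-pregnant group and at 128, 113 and 115 FPKM in the pregnant one. The lowest pregnant library was 1.01 times the highest non-pregnant one. Ddr1 had a log2 change of 0.36 (95% interval -0.02 to 0.73; limma adjusted p = 0.387), and 0.17 without non-pregnant library 3. Its relative Ddr2, the receptor of connective tissue cells, was between 0.0452 and 0.168 FPKM. Collagens that DDR1 can bind showed no call (0 of 4 tested genes of 8 in the list, which includes Ddr2). The basement membrane collagens Col4a1, at 38.7 to 59.1 FPKM, and Col4a2, at 31.4 to 49.3 FPKM, were both highest in non-pregnant library 2 (limma adjusted p = 0.745 and 0.958), the library with the highest endothelial markers. Their part in these values was not tested. Col3a1, a fibrillar collagen, lay between 0.544 and 1.48 FPKM (limma adjusted p = 0.594).

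Cd44, the receptor for hyaluronan and for osteopontin, was low in these cells. It (ENSMUSG00000005087; chromosome 2, 102811141 to 102901665, minus strand) stood at 4.81, 2.37 and 3.42 FPKM in the non-pregnant group and at 3.81, 3.33 and 3.74 FPKM in the pregnant one, from 485 to 934 fragments. The highest and the lowest library were both non-pregnant (log2 change 0.06, 95% interval -0.36 to 0.49; limma adjusted p = 0.880). The direction depended on non-pregnant library 2: the log2 change was -0.13 when it was left out and 0.26 when non-pregnant library 1 was. GENCODE lists 9 transcripts for Cd44, and values per gene do not separate the standard form from those with variant exons. The splicing regulators of these exons, Esrp1 and Esrp2, stood at 14.9 to 17.9 and 26.2 to 34.8 FPKM, with no call (limma adjusted p = 0.775 and 0.409).

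Of 14 genes that act with CD44 or on hyaluronan 10 were tested and 0 passed. Ezr, ezrin, which links CD44 to the actin cortex, stood at 160, 155 and 124 FPKM in the non-pregnant group and at 192, 171 and 217 FPKM in the pregnant one, without overlap (a log2 change of 0.41 with an SE of 0.132; limma adjusted p = 0.304). Rdx, its relative radixin, lay the other way without overlap, at 47.3, 48.3 and 54.8 FPKM against 43.8, 44.6 and 42.4 FPKM (a log2 change of -0.19 with an SE of 0.0823; limma adjusted p = 0.368). Of the hyaluronan synthases Has2 was listed at 0, and Has1 and Has3 were under 1 FPKM. Cd44 is also known from leukocytes. The part of the macrophage markers, given above, in the Cd44 values was not tested.

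Ncam1, the neural cell adhesion molecule, was the lowest of the 9 genes in every library. It (ENSMUSG00000039542; chromosome 9, 49502136 to 49798925, minus strand; overlapped by the antisense gene Gm11149) stood at 0.681, 0.370 and 0.685 FPKM in the non-pregnant group and at 1.16, 0.687 and 1.41 FPKM in the pregnant one, from 169, 97 and 209 against 267, 184 and 309 fragments. The groups touched, with 0.687 as the lowest pregnant and 0.685 as the highest non-pregnant value. Pooled over the libraries the pregnant level was 1.83 times the non-pregnant one, with an exact (Clopper-Pearson) 95% interval from 1.63 to 2.05 that covers counting error only. In the fit with no filter on low values the log2 change was 0.39 ± 0.153 (SE; limma adjusted p = 0.368), and 10.7% of the genes of that fit were higher without overlap. NCAM is also known from hepatic stellate cells and portal fibroblasts. The sum over 12 markers of these cells was 13.5 to 17.5 FPKM in the non-pregnant group and 10.4 to 13.1 FPKM in the pregnant one. Reln, the most abundant of them, had group means of 7.47 and 5.45 FPKM and Dcn of 1.80 and 0.847 FPKM, while those of Col3a1 were 0.909 and 1.17 FPKM. The part of these cells in the Ncam1 values was not tested. In humans NCAM is also a marker of natural killer cells. The sum over the 9 T and NK cell markers in the table was 0.0357 to 0.165 FPKM in the non-pregnant group and 0.546 to 1.61 FPKM in the pregnant one, each marker under 1 FPKM, and their part in the Ncam1 values was not tested.

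Partners of NCAM gave no call (0 of 4 tested genes of 10). Fgfr1, a growth factor receptor that binds NCAM, stood at 56.4, 54.4 and 58.0 FPKM in the non-pregnant group and at 46.8, 50.6 and 44.7 FPKM in the pregnant one, without overlap (a log2 change of -0.25 with an SE of 0.0780; limma adjusted p = 0.301). Fyn, a kinase that couples to NCAM, was at 7.03 FPKM in non-pregnant library 2 and between 1.31 and 1.78 FPKM in the others (limma adjusted p = 0.656). Ptpra, a phosphatase that acts on Fyn, lay between 10.7 and 11.1 FPKM (limma adjusted p = 0.836). L1cam, an adhesion molecule of the same superfamily, lay between 1.07 and 1.52 FPKM (limma adjusted p = 0.973), and Ncam2 was under 1 FPKM throughout. St8sia2 and St8sia4, which add polysialic acid to NCAM, were under 1 FPKM in every library.

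Of the 9 genes, 6 shared their lowest library. Spp1, Prom1, Cd24a, Tm4sf4, Muc1 and Ddr1 were each lowest in non-pregnant library 3, and Epcam, Cd44 and Ncam1 in non-pregnant library 2. No pregnant library was the lowest for any of the 9. Over all tested genes non-pregnant library 3 was the lowest for 28.5% and non-pregnant library 2 for 14.2%. Pregnant libraries 1 to 3 were the lowest for 12.6%, 9.53% and 21.1%. The median log2 deviation of the 8 tested genes from their own means was -0.40 in non-pregnant library 3, -0.04 in both other non-pregnant libraries and between 0.11 and 0.14 in the pregnant ones. As a description over 6 libraries that share this low library, Pearson's r of log2(FPKM + 1) was 0.96 between Ddr1 and Spp1, 0.92 between Ddr1 and Muc1 and between Muc1 and Cd24a, and 0.64 between Tm4sf4 and Cd24a. For Epcam it lay between 0.21 with Tm4sf4 and 0.82 with Cd24a, and for Cd44 between -0.15 and 0.31 with the other 7. Of the 14 duct markers 9 were also lowest in non-pregnant library 3.

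**Figure D3:**
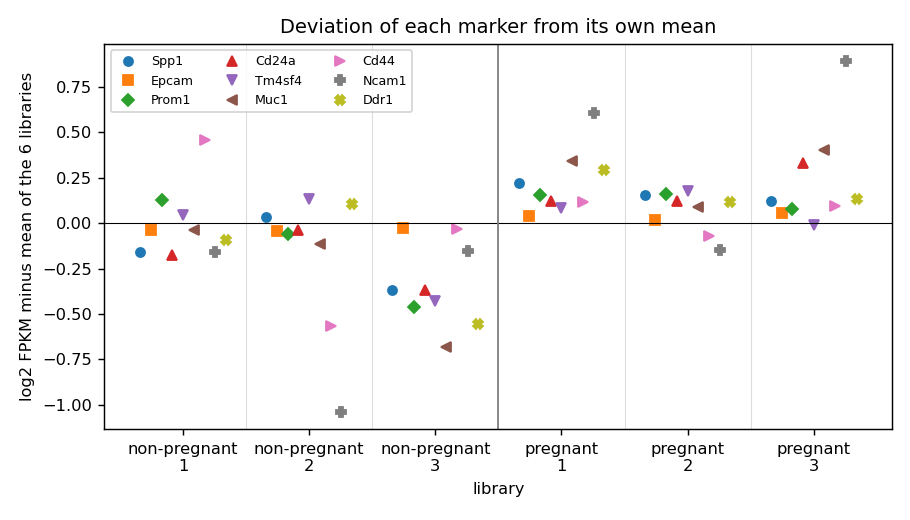
Log2 FPKM of each of the 9 markers minus its mean over the 6 libraries (vertical axis) in each library (horizontal axis), with 1 symbol per gene. In non-pregnant library 3 the symbols of 6 genes lie together below the others, while Epcam stays near 0 in every library and Ncam1 and Cd44 scatter.

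Leaving out non-pregnant library 3 gave smaller log2 changes for the 6 genes that were lowest in it, as removing their lowest non-pregnant value must. The log2 change was then 0.35 for Muc1, 0.29 for Cd24a, 0.23 for Spp1, 0.17 for Ddr1, 0.10 for Prom1 and -0.00 for Tm4sf4, while that of Epcam was 0.08. Leaving out non-pregnant library 2 gave 0.63 for Muc1, 0.50 for Ddr1 and 0.46 for Cd24a. In the 6 fits that each leave out 1 library 0 of the 8 genes passed (limma, 1 to 3 of the 8 with an unadjusted p under 0.05). Of all 11412 tested genes 727, without pregnant library 3, to 2744, without non-pregnant library 2, had such a p.

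**Figure D4:**
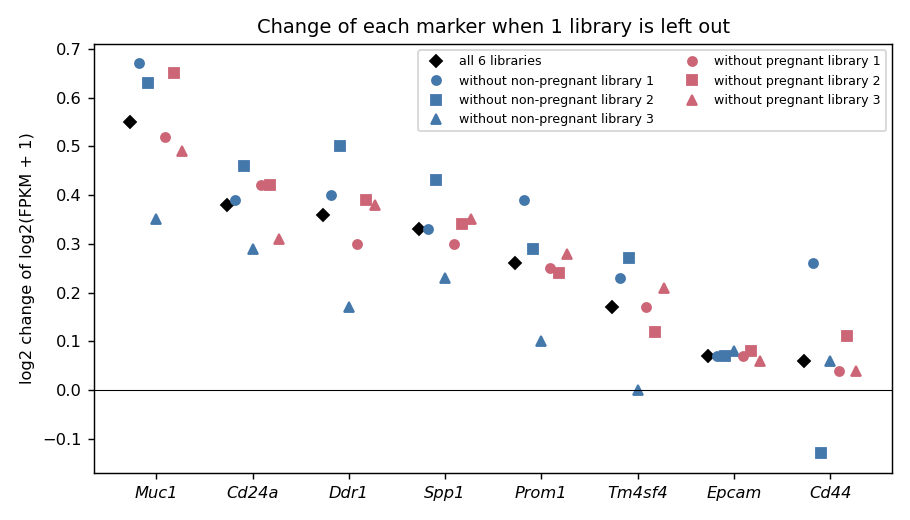
Log2 change of each of the 8 tested markers (vertical axis, pregnant minus non-pregnant) with all 6 libraries and with each library left out in turn. For Muc1, Cd24a, Ddr1, Spp1, Prom1 and Tm4sf4 the lowest value is that without non-pregnant library 3, and for Cd44 that without non-pregnant library 2 is below 0.

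The genes most like each marker over the 6 libraries were taken by Pearson's r of log2(FPKM + 1), as a description. The nearest to Spp1 was Cfi, complement factor I (r = 0.9997), and 217 tested genes had an r above 0.95 with Spp1. The nearest to Cd24a was Inhba, a subunit of activin A (r = 0.9998, 165 genes above 0.95), at 4.30, 5.53 and 2.92 FPKM in the non-pregnant group and at 7.26, 7.21 and 10.2 FPKM in the pregnant one. Ddr1 was nearest to the sialyltransferase gene St6galnac2 (r = 0.9998, 292 genes), Muc1 to Apc2 (r = 0.9969, 182 genes), Prom1 to Rapgef2 (r = 0.9981, 101 genes) and Tm4sf4 to Zglp1 (r = 0.9954, 152 genes). Epcam and Cd44 had fewer such genes, 36 and 14, with Arfgef3 (r = 0.9935) and Prdm16 (r = 0.9913) as the nearest.

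Other duct and progenitor markers outside the 9 gave no call either. Of 22 such genes 17 were tested, 14 of them had a log2 change above 0, and the median was 0.15. Cftr, the chloride channel of duct cells, had the smallest p, at 6.07, 6.18 and 3.87 FPKM in the non-pregnant group and at 8.12, 9.99 and 8.70 FPKM in the pregnant one (a log2 change of 0.66 with an SE of 0.158; limma adjusted p = 0.279). Krt19, the duct keratin, stood at 337, 287 and 220 against 386, 343 and 377 FPKM (limma adjusted p = 0.351). Markers that in the liver are linked to fetal or activated progenitors, Afp, Dlk1, Lgr5 and Foxl1, were under 1 FPKM in every library. Gpc3, another fetal liver gene of the list, had group means of 1.15 ± 0.367 and 1.91 ± 0.766 FPKM (SD, n = 3), with overlap and the highest value, 2.79 FPKM, in pregnant library 1 (a log2 change of 0.42; limma adjusted p = 0.400). Lcn2, an iron-binding defence protein, was at 95.3 FPKM in non-pregnant library 3 and between 19.1 and 37.8 FPKM in the others (limma adjusted p = 0.408), so this library, low in 6 of the 9 genes, was high in this one.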

How the data were processed

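The deposited table gives FPKM values, which the authors made, with 1 column per sample. The build mm10 and the tools DESeq2 1.30.1, STAR 2.7.9a, cutadapt 3.4 and HTSeq 0.13.5 stand in the submitters' processing notes, with no roles. FPKM times GENCODE vM21 union exon length was a whole multiple of 1 step per library for 98.5% of values above 0 (tolerance 0.01), which gave recovered fragments. Median-of-ratios factors computed from the deposited FPKM were 1 in all 6 libraries, so a median-of-ratios rescaling leaves every value as it is.

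Groups and replicate numbers come from the sample titles; the sample descriptions number non-pregnant library 3 as 4. FPKM is not a count, so log2(FPKM + 1) was tested, which understates changes of low genes. The 2-sided test was limma 3.58.1 in R 4.3.3, with a trended prior and Benjamini-Hochberg adjustment, over genes whose mean reached 1 FPKM. The code of the fit was run on simulated data with changes larger than those of the tested markers. That run does not show whether changes as small as theirs would be called. Tables and figures used Python 3.11.15, pandas 2.3.3, scipy 1.17.1 and matplotlib 3.10.9.

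The members, lists and motifs were chosen with earlier results of these data known. Named are the 9 genes, their direct relatives, up to 3 tested genes per list by smallest p, and for each member the most similar gene; other genes were named after their values were seen. Some genes of the lists are not reported here.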

Additional observations from a re-analysis of the deposited data

How the results depend on the processing

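In 19 of 20 other fits 0 of the markers tested in that fit passed (8 markers, 7 with a mean of at least 5 FPKM and 9, Ncam1 included, with no filter; 1 to 3 at an unadjusted p under 0.05), and with array weights 1 did, Cd24a; the cause was not tested. Of the 7767 to 17404 genes tested in those 19 fits, 727 to 2744 had an unadjusted p under 0.05. With array weights 3640 of 11412 genes and 4 of the 8 markers had one. No fit put Muc1, Cd24a, Ddr1, Epcam or Prom1 below 0, with 0.00 as the lowest value of Prom1. Spp1 was at -0.00 with quantile normalisation, which sets the highest gene of every library to 1 value. Cd44 was at -0.24 with array weights, -0.13 (range -0.13 to 0.26 with 1 library left out) without non-pregnant library 2 and -0.33 with non-pregnant libraries 2 and 3 both left out. Tm4sf4 was at -0.00 (range -0.00 to 0.27) without non-pregnant library 3. The median log2 change of the markers lay between 0.13 and 0.36 when 1 library was left out. The SD of their mean log2 level, pooled within the groups over all 6 libraries, was 0.142. The number of genes called among all tested genes was 10. It was 0 with a pseudocount of 5 FPKM and 0 with no filter on low values (1516 and 2258 genes at an unadjusted p under 0.05), 4 with a mean of at least 5 FPKM, 5 with robust empirical Bayes, 1 with limma-voom on recovered fragments, 1301 with array weights and 43 with non-pregnant libraries 2 and 3 left out. When 1 library was left out it lay between 0 and 133. The setting with 2 libraries out and a scaling to total fragments were chosen after seeing the data. The lone library in that setting is assumed to vary like the other group. Deviations of same-numbered libraries correlated at 0.0679, 0.0186 and -0.138, and those of differently numbered ones between -0.1515 and 0.1032. With 3 libraries per group these values cannot show whether the replicate numbers pair the libraries. With the replicate block 13 genes were called, none of the 8 tested markers among them, and the markers' median was 0.29. FPKM per gene limits what can be said of isoforms, and the few fragments of Ncam1 limit its precision.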

Other observations

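A few genes of the lists were highest in non-pregnant library 1 and were picked once their values were known. Tff3, a trefoil peptide, was at 1.49 FPKM against at most 0.609, and the mucin gene Muc20 at 1.52 against at most 0.858 FPKM. Tff2, another trefoil peptide gene, and Muc1 were highest in pregnant library 3, at 46.2 and 166 FPKM. Cd44 was highest in non-pregnant library 1, at 4.81 against at most 3.81 FPKM. So was Msln, a marker of mesothelium, at 11.5 against at most 8.21 FPKM. Aqp1, a water channel of duct cells and of endothelium, was at 110 FPKM in non-pregnant library 2 and between 6.37 and 12.1 FPKM in the others, in the library with an endothelial marker sum of 318 FPKM, and its part in the value was not tested.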
